A study of Mus musculus with 15 samples.

Results

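FLK1+ mesoderm cells that did or did not express an Endoglin-driven LacZ reporter were compared in 6 RNA-seq libraries, out of 15 in the whole series. All 6 came from differentiated mouse embryonic stem cells of the line labelled -8/P/+7/+9, in which LacZ (bacterial beta-galactosidase) is under the promoter (P) of Endoglin (Eng) and its -8, +7 and +9 kb enhancers. The libraries were chosen by their labels as 3 FLK1+/LacZ+ and 3 FLK1+/LacZ- libraries, numbered 1 to 3, and were paired by number. The other 9 libraries, labelled HEI, carry a construct of the promoter joined to the -8 kb element alone. They entered the main fit, where they helped to estimate both the spread and the replicate terms. The day of differentiation, the sort gates, the number of clones and whether the replicates were separate cultures are not stated by the labels. The p-values therefore measure the spread between these samples, which may be technical.

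FLK1, the VEGF receptor encoded by Kdr, marks mesoderm that has left the primitive streak and can still give rise to blood, endothelium, heart and muscle. Cells on the way to blood and endothelium switch on ETS-family transcription factors such as Etv2 and Fli1, together with Tal1, Lmo2 and Gata2, and then surface proteins of the vessel wall such as VE-cadherin (Cdh5) and the angiopoietin receptor TIE2 (Tek). Streak genes such as Mixl1, Eomes and T are switched off along this path. Endoglin is an accessory receptor for TGF-beta ligands on endothelium and early blood precursors, and the comparison asks how FLK1+ cells with an active Endoglin reporter differ from those without.

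In the FLK1+ libraries the deposited counts summed to between 10281133 and 14988239 per library. Both replicate 1 libraries stood apart from replicates 2 and 3: the ribosomal precursor Rn45s took 2.54% and 3.56% of their counts, against 0.675% to 0.784% in the other 4. The SD of the log2 differences over all 13662 genes tested was 0.71 in pair 1, 0.42 in pair 2 and 0.44 in pair 3. Across these genes, which are not independent replicates, the differences of pair 1 correlated with those of pairs 2 and 3 at Pearson r = 0.052 and 0.066, and pairs 2 and 3 with each other at 0.126. Results are therefore given for each pair, and for a fit without the replicate 1 libraries.

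The label checks gave mixed values. Kdr, the gene of the sort marker, stood at 319, 715 and 574 CPM (counts at a common library size) in LacZ- replicates 1 to 3 and at 324, 647 and 510 CPM in LacZ+ replicates 1 to 3. It was abundant in all 6 libraries, and the groups overlapped. Eng itself, the locus that the reporter's elements come from, stood at 38.4, 20.8 and 25.0 CPM in LacZ- and at 85.2, 23.9 and 20.5 CPM in LacZ+ libraries. Only LacZ+ replicate 1 lay above every LacZ- library, and LacZ+ replicate 3 lay below them all. In the fit of all 15 libraries the difference was 0.31 ± 0.26 on the log2 scale (SE, 3 libraries per group, edgeR adjusted p = 1). In replicates 2 and 3 alone it was -0.05 ± 0.12 (edgeR adjusted p = 0.95), so no difference in the native Eng transcript was detectable there between cells sorted by the reporter. The LacZ transcript itself was not analysed here.

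With the replicate number as a block, edgeR's quasi-likelihood test called none of the 13662 genes at an adjusted p of 0.05 (0% called), and the lowest adjusted p was 0.104. At an unadjusted p under 0.05 there were 620 genes, 457 higher in LacZ+ cells (3.35% of those tested) and 163 lower (1.19%). This lean to higher genes was absent with only the FLK1+ libraries in the fit, at 371 higher and 383 lower of 12721 tested. DESeq2 with the same block called 50 genes, 48 of them higher (0.351%) and 2 lower (0.0146%). In the edgeR fit of replicates 2 and 3 only, 32 of 13321 genes passed, 20 that rose (0.15%) and 12 that fell (0.0901%). Of these 32 genes, 25 had the same sign in pair 1, which that fit did not use. The matching share over all genes tested was not computed, so this count has no background to be read against. The 2 sets shared 11 genes, 34.4% of the replicate 2 and 3 set and 22% of the DESeq2 set. Below, "rose" and "fell" are used for genes that passed in the fit of replicates 2 and 3 or with DESeq2, with the fit named, and other genes are given by their values.

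Endothelial genes were higher in LacZ+ cells. All 31 markers tested had a positive fitted difference, with a median of 1.12 log2 against 0.02 over all genes tested. Of the 31, 21 were higher in LacZ+ cells in 3 of 3 pairs (67.7%, against 17.6% of all genes), and 12 had groups that did not overlap (2.44% of all genes). At an unadjusted p under 0.05, 25 were higher (3.35% of all genes). The size differed by pair: the median was 1.88 log2 in pair 1, 0.30 in pair 2 and 0.56 in pair 3. In the fit of replicates 2 and 3, 4 members rose (Cdh5, Cd93, Ptprb and Tek), against 0.15% of all genes. DESeq2 on all libraries called 9 as higher, against 0.351% of all genes. The summed level of the 31 genes ran from 511 to 620 CPM in LacZ- and from 661 to 1600 CPM in LacZ+ libraries.

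Cdh5, which encodes the endothelial junction protein VE-cadherin (chromosome 8, 104101613 to 104144504, assembly GRCm38.p6), stood at 10.4, 14.9 and 14.9 CPM in LacZ- and at 123, 27.8 and 37.7 CPM in LacZ+ libraries. Every LacZ+ library lay above every LacZ- library, LacZ+ replicate 1 by far the most. The difference was 2.03 ± 0.39 log2 in the fit of all 15 libraries (edgeR adjusted p = 0.21). It was 1.12 ± 0.11 in replicates 2 and 3, where Cdh5 rose (edgeR adjusted p = 6.93e-06). In the 3 HEI groups, from another line, Cdh5 averaged 852 to 1968 CPM, so both FLK1+ fractions stood low on that scale. Pecam1, the adhesion protein CD31 (chromosome 11, 106654213 to 106715281), stood at 6.38, 5.72 and 10.01 CPM in LacZ- and at 46.4, 12.9 and 23.2 CPM in LacZ+ libraries, again without overlap. It was 1.83 ± 0.31 log2 higher (edgeR adjusted p = 0.138) and rose with DESeq2 (adjusted p = 9.71e-07), but had an edgeR adjusted p of 0.412 in replicates 2 and 3.

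The angiopoietin receptor pathway was higher at its receptors. Tek (TIE2; chromosome 4, 94739086 to 94874976) stood at 8.97, 20.7 and 22.9 CPM in LacZ- and at 46.8, 29.7 and 33.9 CPM in LacZ+ libraries. Its groups did not overlap, and it rose by 0.53 ± 0.10 log2 in replicates 2 and 3 (edgeR adjusted p = 0.0166) against 2.36 in pair 1. Tie1, its partner receptor (chromosome 4, 118471191 to 118489849), stood at 2.52, 2.49 and 2.78 CPM in LacZ- and at 28.5, 4.30 and 4.93 CPM in LacZ+ libraries. All LacZ+ libraries were higher, and Tie1 rose with DESeq2 on all libraries (adjusted p = 0.0495), but its difference of 0.79 ± 0.22 log2 in replicates 2 and 3 did not pass (edgeR adjusted p = 0.194). Ptprb, the phosphatase VE-PTP that acts on TIE2 and VE-cadherin, stood at 12.6, 17.6 and 14.6 CPM in LacZ- and at 43.0, 25.3 and 28.9 CPM in LacZ+ libraries, and rose by 0.74 ± 0.11 log2 in replicates 2 and 3 (edgeR adjusted p = 0.00257). Of the ligands, Angpt1 stood at 0.561 to 0.834 CPM in LacZ- and at 1.02 to 2.16 CPM in LacZ+ libraries, and Angpt2 was lower in 2 of 3 pairs. In the wider VEGF and angiopoietin list of 20 genes, 7 were higher and 1 was lower in 3 of 3 pairs (35% and 5%, against 17.6% and 12.3% of all genes), with a median of 0.04 log2. Flt1, VEGF receptor 1, had groups that did not overlap (21.0 to 42.1 CPM in LacZ- and 45.6 to 54.5 CPM in LacZ+ libraries), while Flt4, VEGF receptor 3, was higher in pair 1 by 1.79 log2 and differed by -0.02 and 0.09 in pairs 2 and 3.

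Other endothelial surface genes had levels from moderate to near absent. Cd93, a C-type lectin-like receptor, stood at 1.89, 3.23 and 3.06 CPM in LacZ- and at 15.4, 6.90 and 10.4 CPM in LacZ+ libraries and rose by 1.44 ± 0.22 log2 in replicates 2 and 3 (edgeR adjusted p = 0.00733). The tight-junction gene Cldn5 had 1 read in each LacZ- library and 87, 13 and 1 reads in the LacZ+ libraries, so it was near absent in LacZ+ replicate 3 as well. Emcn, a sialomucin of mature endothelium, had 0 to 14 reads in any library. Members of the list that were high in pair 1 alone included Sox7, Arhgef15 and Aplnr, whose pair differences were 2.27, -0.08 and 0.18, then 1.75, 0.031 and -0.0049, then 1.09, -0.19 and 0.03 log2. Outside the list, and named after their values were seen, Eltd1, an adhesion G protein-coupled receptor of endothelium, rose by 1.62 ± 0.25 log2 in replicates 2 and 3 (edgeR adjusted p = 0.00355), and Tlr4, a receptor of innate immunity, had 0 reads in all 3 LacZ- libraries against 21, 5 and 13 reads in the LacZ+ libraries. A count of 0 allows up to 3 reads in a library, for counting error only.

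**Figure D1:**
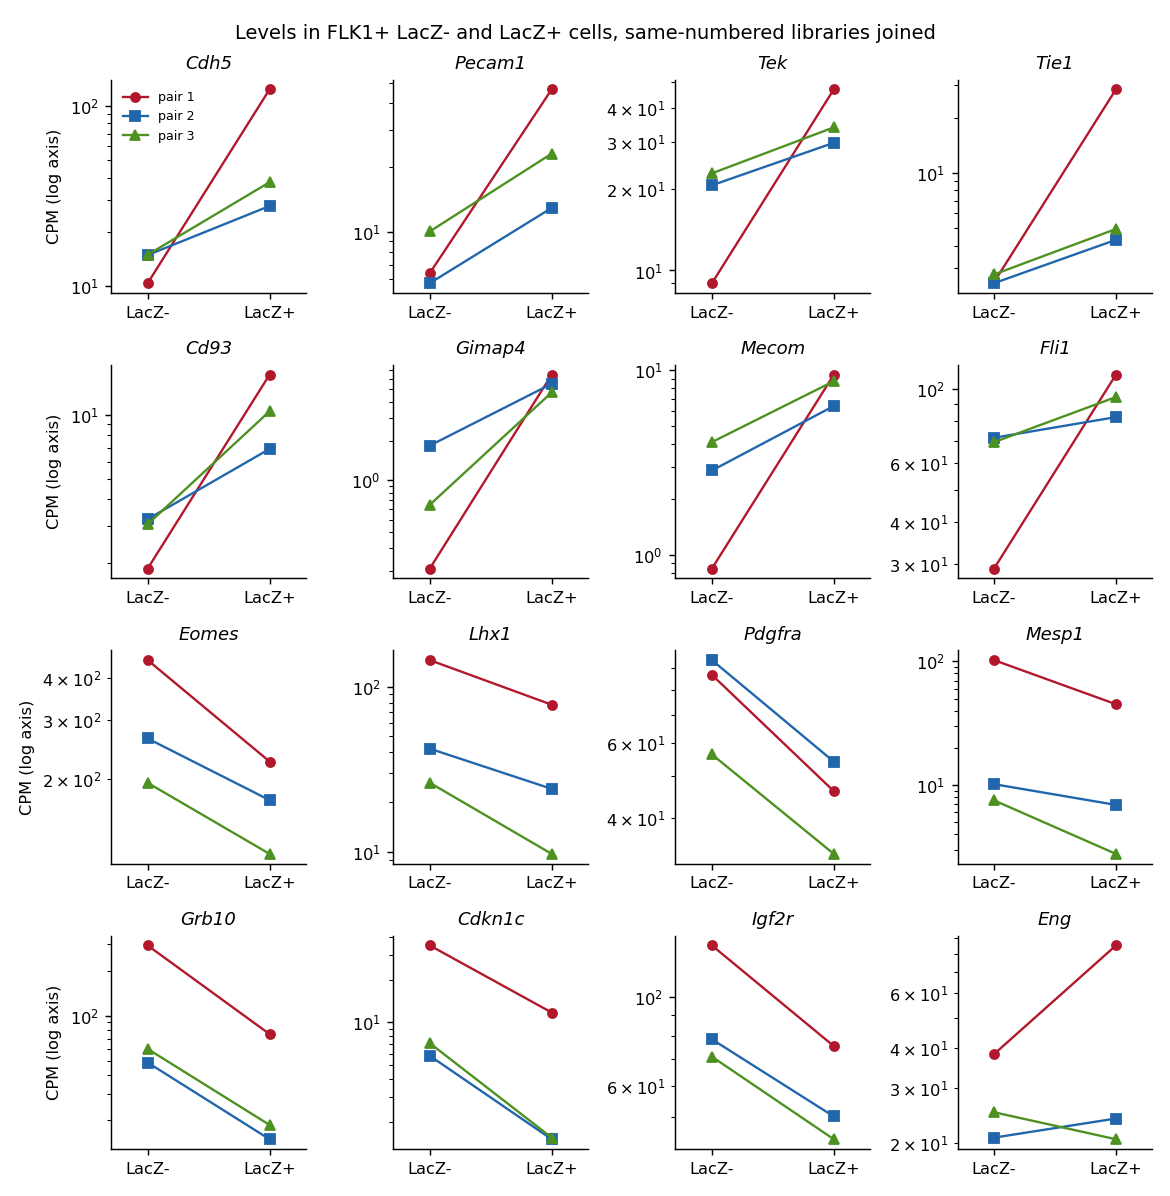
Level of 16 genes in CPM (log axis) in FLK1+ LacZ- and LacZ+ libraries, with same-numbered libraries joined by a line (3 pairs). Cdh5 went from 10.4 to 123 CPM in pair 1 and from 14.9 to 27.8 and 37.7 CPM in pairs 2 and 3, Grb10 was lower in every pair, and Eng was higher in pairs 1 and 2 and lower in pair 3.

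The promoters of Eng, Tek and Tie1 are shown because Eng gives the reporter its promoter and because both receptor genes were higher in LacZ+ cells in every pair. Each window runs from 250 bases before to 50 bases after a transcript start, from RefSeq on GRCm38.p6, 5′ to 3′ on the gene's strand. For Eng and Tie1 that start is the 5′ end of the gene's interval. For Tek it is base 94739289, which lies 203 bases inside the interval given above, so most of the Tek window is within that interval. Capitals mark the ETS-type motif AGGAAG on either strand. They also mark GATAAG, the GATA-type motif, on either strand. They lie at chr2:32646345-32646644 (plus strand), chr4:94739039-94739338 (plus strand) and chr4:118489800-118490099 (minus strand), in this order.
Eng: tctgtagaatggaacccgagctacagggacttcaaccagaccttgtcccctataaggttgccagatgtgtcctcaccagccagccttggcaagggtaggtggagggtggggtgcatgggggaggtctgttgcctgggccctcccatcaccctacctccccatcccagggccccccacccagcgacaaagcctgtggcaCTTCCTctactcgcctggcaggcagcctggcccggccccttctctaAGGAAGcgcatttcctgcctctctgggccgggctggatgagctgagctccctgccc
Tek: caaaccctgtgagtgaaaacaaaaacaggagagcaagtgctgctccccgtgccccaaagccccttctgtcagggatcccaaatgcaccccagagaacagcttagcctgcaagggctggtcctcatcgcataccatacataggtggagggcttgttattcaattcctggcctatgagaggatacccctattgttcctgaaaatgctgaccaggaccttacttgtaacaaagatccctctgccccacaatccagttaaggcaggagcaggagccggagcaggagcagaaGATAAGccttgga
Tie1: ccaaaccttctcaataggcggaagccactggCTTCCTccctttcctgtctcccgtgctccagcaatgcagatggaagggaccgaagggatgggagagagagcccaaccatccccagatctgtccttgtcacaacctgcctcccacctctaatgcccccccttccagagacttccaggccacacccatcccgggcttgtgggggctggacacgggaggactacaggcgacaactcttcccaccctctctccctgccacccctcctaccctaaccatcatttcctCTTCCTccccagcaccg
The Eng and Tie1 windows each held 2 matches to AGGAAG and none to GATAAG, and the Tek window held 1 match to GATAAG, past the transcript start, and none to AGGAAG. Over all 32851 promoter windows, 35.4% held AGGAAG and 7.44% held GATAAG. The table had 17 windows for 15 of the 31 endothelial genes, of which 11 held AGGAAG (64.7%) and 3 held GATAAG (17.6%). It had 18 windows for 16 of the 20 primitive streak genes, of which 3 held AGGAAG (16.7%) and none GATAAG. The ETS-type variant CAGGAA was in 70.6% of the endothelial windows, 16.7% of the primitive streak windows and 30.6% of all windows. A further variant, GGAAGT, was in 35.3%, 11.1% and 23.8% of them. Both variants can overlap the first motif. A match describes the letters of the window and was not tested as a binding site.

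The transcription factors of the haemangioblast, the common precursor of blood and endothelium, did not move as 1 group. Of 20 tested, 9 were higher and 1 lower in 3 of 3 pairs (45% and 5%, against 17.6% and 12.3% of all genes), 4 had groups without overlap on the high side (2.44% of all genes), and the median was 0.53 log2, but pair medians were 1.34, 0.01 and 0.21. The early factor Etv2 stood at 125, 24.8 and 23.0 CPM in LacZ- and at 74.6, 24.1 and 20.2 CPM in LacZ+ libraries. It was lower in each LacZ+ library than in its partner, by 0.04 log2 in pair 2, a difference of -0.37 ± 0.22 (edgeR adjusted p = 1). Tal1 and Lmo2, partners in 1 DNA-binding complex with Gata2, were nearly level in pairs 2 and 3: Tal1 differed by 1.43, 0.03 and 0.04 log2, Lmo2 by 0.51, -0.19 and -0.06, and Gata2 by 0.63, -0.07 and 0.02. The ETS factor Fli1 stood at 29.2, 71.4 and 69.3 CPM in LacZ- and at 110, 82.3 and 94.4 CPM in LacZ+ libraries. Its groups did not overlap, and it rose with DESeq2 (adjusted p = 0.0494) but had an edgeR adjusted p of 0.158 in replicates 2 and 3. Bcl6b, a zinc finger repressor, stood at 5.81 to 8.76 CPM in LacZ- and at 10.4 to 42.1 CPM in LacZ+ libraries, without overlap (edgeR adjusted p = 0.0529 in replicates 2 and 3; DESeq2 adjusted p = 0.00342 in all libraries).

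Of 20 early haematopoietic genes tested, 13 were higher and none was lower in 3 of 3 pairs (65% higher, against 17.6% of all genes), 6 had groups without overlap on the high side (2.44% of all genes), and the median was 0.74 log2 (1.24, 0.19 and 0.34 by pair). Gimap4, a GTPase of the immunity-associated family, had 3, 20 and 7 reads in LacZ- and 101, 55 and 46 reads in LacZ+ libraries. It rose by 2.01 ± 0.32 log2 in replicates 2 and 3 (edgeR adjusted p = 0.00733), and no LacZ+ library reached down to a LacZ- level. Mecom, a zinc finger factor of blood stem cells and endothelium, stood at 0.841, 2.86 and 4.08 CPM in LacZ- and at 9.45, 6.40 and 8.72 CPM in LacZ+ libraries, and rose by 1.11 ± 0.22 log2 in replicates 2 and 3 (edgeR adjusted p = 0.0321). Runx1, needed to form definitive blood, stood at 130, 136 and 128 CPM in LacZ- and at 138, 152 and 159 CPM in LacZ+ libraries. The groups did not overlap, yet the difference was small at 0.18 ± 0.23 log2 (edgeR adjusted p = 1). Kit and Itga2b, which encode the surface proteins c-KIT and CD41, had positive differences in each pair, at 1.37, 0.18 and 0.45 log2 for Kit and 1.27, 0.66 and 0.26 log2 for Itga2b.

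Of the lists of differentiated blood, 8 of 14 megakaryocyte, 6 of 15 myeloid and 12 of 18 erythroid genes had enough reads to be tested. Among those with few or no reads, named after their values were seen, Ptprc, the gene of the leukocyte antigen CD45, had at most 1 read in any FLK1+ library, Pf4 of megakaryocytes at most 4, and the adult globin Hba-a1, the platelet gene Ppbp, Cx3cr1 and Elane had 0. Other members were well detected in every FLK1+ library: Tfrc, the transferrin receptor, had 3007 to 8764 reads, Cd68 137 to 366, Lcp1 87 to 224 and Itgb3 74 to 485. The summed level of the tested megakaryocyte genes ran from 31.6 to 37.6 CPM in LacZ- and from 38.2 to 88.1 CPM in LacZ+ libraries, and that of the myeloid genes from 34.6 to 35.7 and from 41.6 to 71.3 CPM. Of 8 megakaryocyte genes tested, 6 were higher in 3 of 3 pairs (75%, against 17.6% of all genes), of 6 myeloid genes 3 (50%), and of 12 erythroid genes 4 (33.3%), with medians of 0.59, 0.80 and 0.10 log2. No member of these lists passed in replicates 2 and 3. Laptm5, a lysosomal membrane protein of blood cells, rose with DESeq2 (adjusted p = 0.0171), at 2.95 to 4.63 CPM in LacZ- and 4.40 to 22.6 CPM in LacZ+ libraries.

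**Figure D2:**
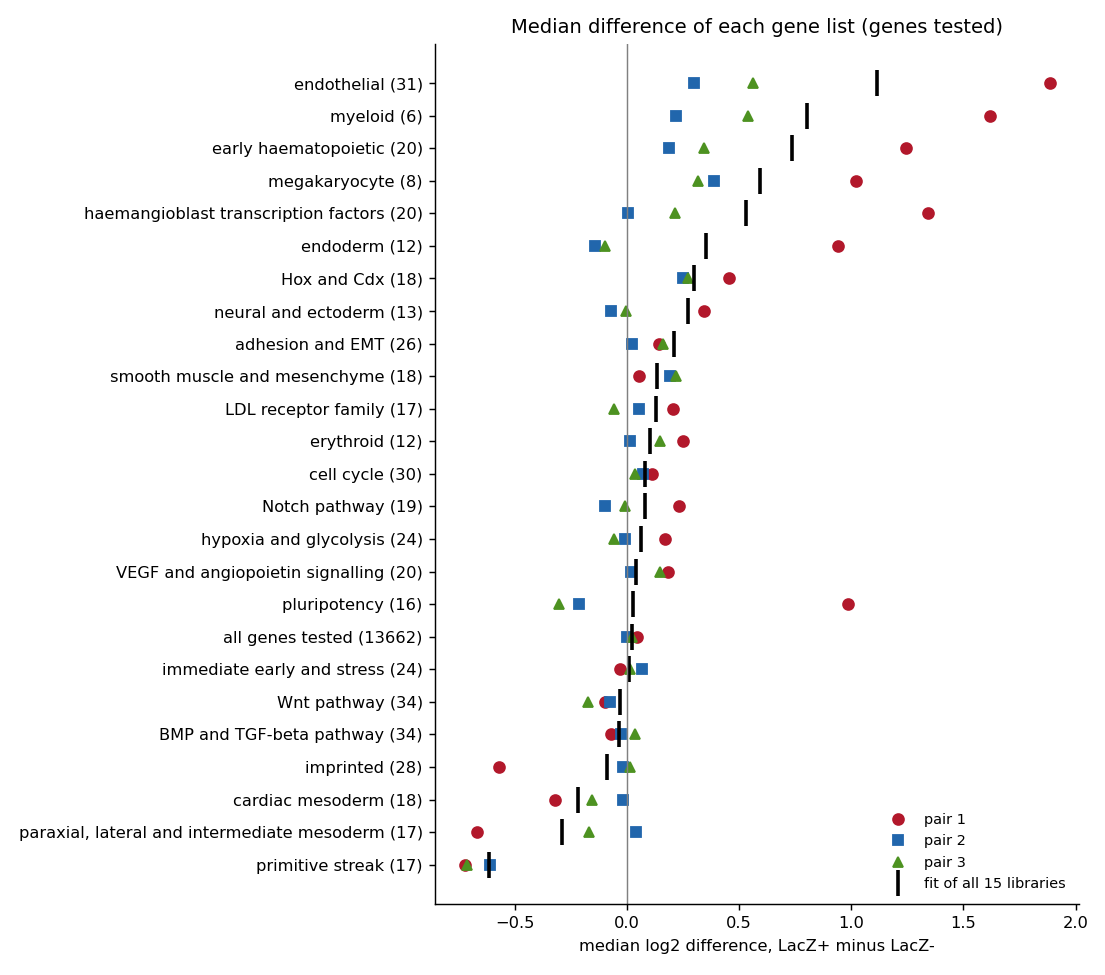
Median log2 difference (LacZ+ minus LacZ-) of each gene list, with the number of genes tested in brackets; points are the 3 pairs and the bar is the fit of all 15 libraries. The endothelial medians were 1.88, 0.30 and 0.56, those of the primitive streak list -0.72, -0.61 and -0.71, and the pluripotency list was positive in pair 1 only.

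Primitive streak genes were lower in LacZ+ cells by a similar amount in every pair. Of 17 tested, 13 were lower in 3 of 3 pairs (76.5%, against 12.3% of all genes) and none was higher in 3 of 3. The median was -0.61 log2 overall and -0.72, -0.61 and -0.71 in pairs 1 to 3. Because levels also differed between replicates, no member had groups without overlap (1.57% of all genes did in this direction). At an unadjusted p under 0.05, 6 were lower (1.19% of all genes). Their summed level ran from 1235 to 2971 CPM in LacZ- and from 744 to 1788 CPM in LacZ+ libraries.

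Eomes, a T-box factor of the streak (chromosome 9, 118478186 to 118486132), stood at 452, 264 and 194 CPM in LacZ- and at 225, 172 and 119 CPM in LacZ+ libraries. Each LacZ+ library was below its partner although the groups overlapped, and Eomes fell by 0.67 on the log2 scale in replicates 2 and 3 (SE 0.11, edgeR adjusted p = 0.0166). Lhx1, a homeobox factor of the anterior streak and of lateral mesoderm (chromosome 11, 84517975 to 84525534), stood at 145, 42.2 and 26.2 CPM in LacZ- and at 77.8, 24.1 and 9.75 CPM in LacZ+ libraries, and fell by 1.09 on the log2 scale in replicates 2 and 3 (SE 0.19, edgeR adjusted p = 0.0103). Mesp1, a bHLH factor of the earliest heart and head mesoderm, stood at 102, 10.2 and 7.51 CPM in LacZ- and at 45.0, 6.90 and 2.77 CPM in LacZ+ libraries, lower in every pair (-1.05 ± 0.26 log2, edgeR adjusted p = 0.548). Mixl1, a homeobox factor, stood at 980, 529 and 422 CPM in LacZ- and at 594, 384 and 280 CPM in LacZ+ libraries (-0.61 ± 0.43 log2, edgeR adjusted p = 1). With only the FLK1+ libraries of replicates 2 and 3, Mixl1 differed by -0.55 ± 0.07 log2 (edgeR adjusted p = 0.000818). That fit was chosen after seeing the data. T (Brachyury) differed by -0.16, -0.26 and -0.65 log2 in pairs 1 to 3. Nodal, Lefty2 and Fgf5 were the exceptions in pair 1, at 0.67, 0.36 and 0.37 log2 there and at -0.30 to -1.46 in pairs 2 and 3.

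Pdgfra, the PDGF receptor that marks paraxial and heart-forming mesoderm, was the member of the paraxial, lateral and intermediate mesoderm list whose groups did not overlap. It stood at 86.8, 94.0 and 56.4 CPM in LacZ- and at 46.2, 54.2 and 32.8 CPM in LacZ+ libraries, with pair differences of -0.91, -0.79 and -0.78 log2 (edgeR adjusted p = 0.857, and 0.0544 in replicates 2 and 3). Of the 17 genes of that list, 6 were lower and 1 was higher in 3 of 3 pairs (35.3% and 5.88%, against 12.3% and 17.6% of all genes). The list median was -0.29 log2, but pair medians were -0.67, 0.04 and -0.17, so the list was not lower in pair 2. The Notch ligand genes Dll1 and Dll3 and the T-box gene Tbx6 were lower in every pair, whereas Hand1, abundant at 383 to 672 CPM, differed by 0.10, 0.20 and 0.12 log2. Tbx6, like Mesp1 of the cardiac mesoderm list, is also on the primitive streak list, so these lists are not separate. Of 18 cardiac mesoderm genes, 5 were lower and 1 was higher in 3 of 3 pairs (27.8% and 5.56%). Their median was -0.22 log2, with pair medians of -0.32, -0.02 and -0.15. Isl1, a factor of heart progenitors, was lower in each pair, with differences of -0.56, -0.52 and -0.50 log2 (edgeR adjusted p = 1), and Tbx20 differed by -0.84, 0.05 and 0.39 log2. Wnt pathway genes were lower in 3 of 3 pairs for 11 of 34 and higher for 2 (32.4% and 5.88%), with a median of -0.03 log2.

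**Figure D3:**
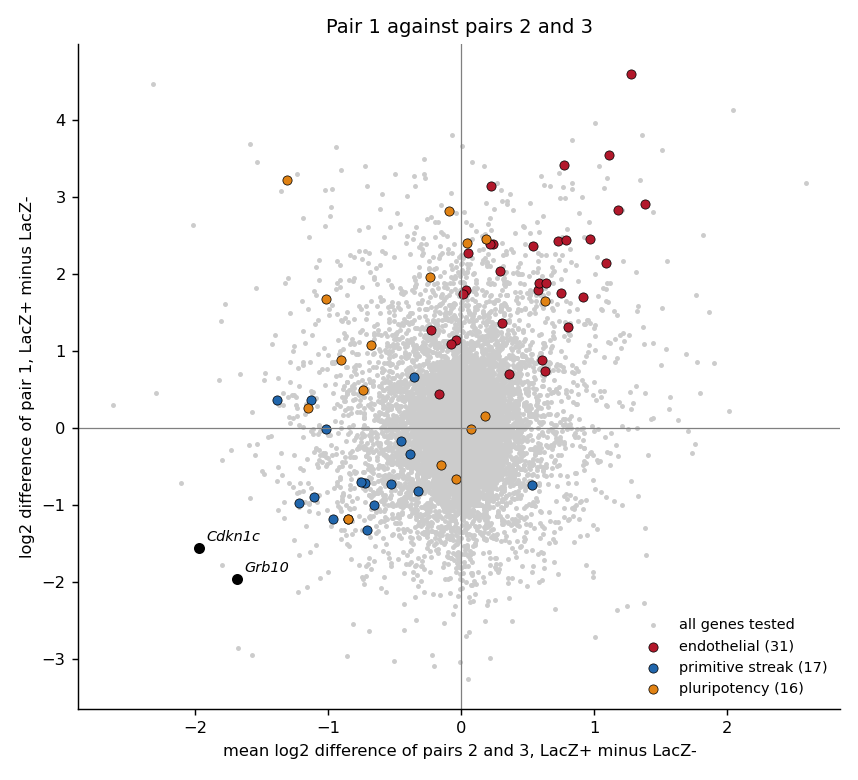
Log2 difference (LacZ+ minus LacZ-) of each gene in pair 1 (y axis) against its mean in pairs 2 and 3 (x axis); grey points are all 13662 genes tested. Endothelial genes lie mostly to the upper right, but Eng and Aplnr lie just left of 0 on the x axis. Primitive streak genes lie mostly to the lower left with Grb10 and Cdkn1c (black). Several pluripotency genes are high on the y axis and at or left of 0 on the x axis.

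Endoglin acts with receptors of the TGF-beta and BMP pathway. Of 34 genes tested on that list, 6 were higher and 5 lower in 3 of 3 pairs (17.6% and 14.7%), near the shares of 17.6% and 12.3% over all genes, and the median was -0.03 log2. There were 3 genes without overlap on the high side and 1 on the low side (2.44% and 1.57% of all genes). The genes without overlap were Tgfbr2, Tgfbr3 and Bmp6 on the high side and Nog, which encodes the BMP antagonist noggin and had 11 to 27 reads per library, on the low side. Tgfbr2, the type II TGF-beta receptor, stood at 6.17, 7.20 and 7.32 CPM in LacZ- and at 17.8, 9.80 and 9.75 CPM in LacZ+ libraries (0.88 ± 0.28 log2, edgeR adjusted p = 0.693). Tgfbr3, the co-receptor betaglycan, related in structure to Endoglin, stood at 22.6, 30.8 and 28.9 CPM in LacZ- and at 65.3, 32.4 and 41.3 CPM in LacZ+ libraries (0.67 ± 0.23 log2, edgeR adjusted p = 0.857). Acvrl1 (ALK1), the endothelial type I receptor that signals with Endoglin, was higher in each pair by 1.38, 0.26 and 0.45 log2 but overlapped (edgeR adjusted p = 0.603). Smad1, which carries the BMP signal to the nucleus, was lower in each pair at -0.57, -0.27 and -0.30 log2 (edgeR adjusted p = 1), and the abundant receptor gene Bmpr2 differed by -0.06 to 0.20 log2. None of these genes passed in the edgeR fits of all libraries or of replicates 2 and 3, or with DESeq2.

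Hox genes are switched on in order along their clusters as mesoderm forms. Of 18 Hox and Cdx genes tested, 8 were higher and 2 lower in 3 of 3 pairs (44.4% and 11.1%, against 17.6% and 12.3% of all genes), with a median of 0.30 log2 and pair medians of 0.46, 0.25 and 0.27. Hoxb4 stood at 0.701, 2.95 and 4.54 CPM in LacZ- and at 2.11, 4.80 and 8.01 CPM in LacZ+ libraries, higher in each pair by 1.39, 0.67 and 0.80 log2. Hoxb5 stood at 0.982, 2.49 and 4.91 CPM in LacZ- and at 5.88, 3.40 and 7.18 CPM in LacZ+ libraries. Neither passed (edgeR adjusted p = 1 for both), and their groups overlapped. Among mesenchymal and adhesion genes, Fn1 (fibronectin) and Cdh2 (N-cadherin) were lower in each pair, Fn1 with differences of -0.33, -0.19 and -0.25 log2 and Cdh2 with -0.63, -0.21 and -0.28, while Vim (vimentin) was higher by 0.84, 0.16 and 0.36 log2 (edgeR adjusted p = 1, 1 and 0.485).

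The 3 genes that fell with the lowest p in replicates 2 and 3, Grb10, Igf2r and Cdkn1c, are imprinted, that is, expressed from 1 parental allele. Grb10, an adaptor that dampens insulin and IGF receptor signalling (chromosome 11, 11930499 to 12037428), stood at 295, 48.5 and 59.9 CPM in LacZ- and at 75.3, 14.9 and 18.6 CPM in LacZ+ libraries. The groups overlapped since replicate 1 was high in both, but the pair differences were alike, at -1.97, -1.69 and -1.68 log2. The fit of all 15 libraries gave -1.82 ± 0.51 (edgeR adjusted p = 0.548). With only the 6 FLK1+ libraries in the fit the SE was 0.11 (edgeR adjusted p = 0.00546). Grb10 was the single gene of 12721 that passed there (0.00786% called lower and 0% higher). It also passed in replicates 2 and 3 (edgeR adjusted p = 2.79e-07). Cdkn1c, the cell-cycle inhibitor p57 (chromosome 7, 143458339 to 143461059), stood at 34.9, 5.81 and 7.14 CPM in LacZ- and at 11.8, 1.5 and 1.54 CPM in LacZ+ libraries. It fell by 2.09 on the log2 scale in replicates 2 and 3 (SE 0.33, edgeR adjusted p = 0.00355) and fell with DESeq2 on all libraries (adjusted p = 0.0082). Igf2r, which clears the growth factor IGF2 (chromosome 17, 12682406 to 12769706), stood at 134, 78.4 and 70.9 CPM in LacZ- and at 75.4, 50.3 and 44.1 CPM in LacZ+ libraries, and fell by 0.67 on the log2 scale in replicates 2 and 3 (SE 0.09, edgeR adjusted p = 0.000408). Igf2r overlaps the antisense transcript Airn, and no source used here gives the strand setting of the counting.

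Of 28 imprinted genes tested, 8 were higher and 7 lower in 3 of 3 pairs (28.6% and 25%, against 17.6% and 12.3% of all genes), with a median of -0.09 log2. Sorted by the allele known to be expressed, a division made after the values were seen, 6 of 13 maternally expressed genes were lower and 2 higher in 3 of 3 pairs, against 1 lower and 6 higher of 14 paternally expressed genes. The medians were -0.38 log2 for the maternally and 0.07 log2 for the paternally expressed genes. Phlda2, a growth-restraining gene next to Cdkn1c, stood at 421, 48.1 and 50.7 CPM in LacZ- and at 99.8, 33.8 and 31.2 CPM in LacZ+ libraries. Zim1, a zinc finger gene, had 280, 25 and 31 reads in LacZ- and 40, 4 and 11 reads in LacZ+ libraries. Both were lower in every pair (edgeR adjusted p = 0.548 and 0.497). The maternally expressed H19 went the other way, higher by 2.63, 0.36 and 0.57 log2. Among paternally expressed genes, Mest stood at 828, 1606 and 1850 CPM in LacZ- and at 1964, 2138 and 2653 CPM in LacZ+ libraries, without overlap, and rose by 0.45 ± 0.06 log2 in replicates 2 and 3 (edgeR adjusted p = 0.00145). Igf2, the growth factor that IGF2R binds, was higher by 0.85, 0.43 and 0.46 log2 (edgeR adjusted p = 1). Peg10 and Sgce, neighbours on the imprinted map, differed by 0.02 to 0.15 log2 in any pair. Both count among the 6 paternally expressed genes that were higher in 3 of 3 pairs. Impact and Ndn do too, with small fitted differences of 0.20 and 0.23 log2.

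**Figure D4:**
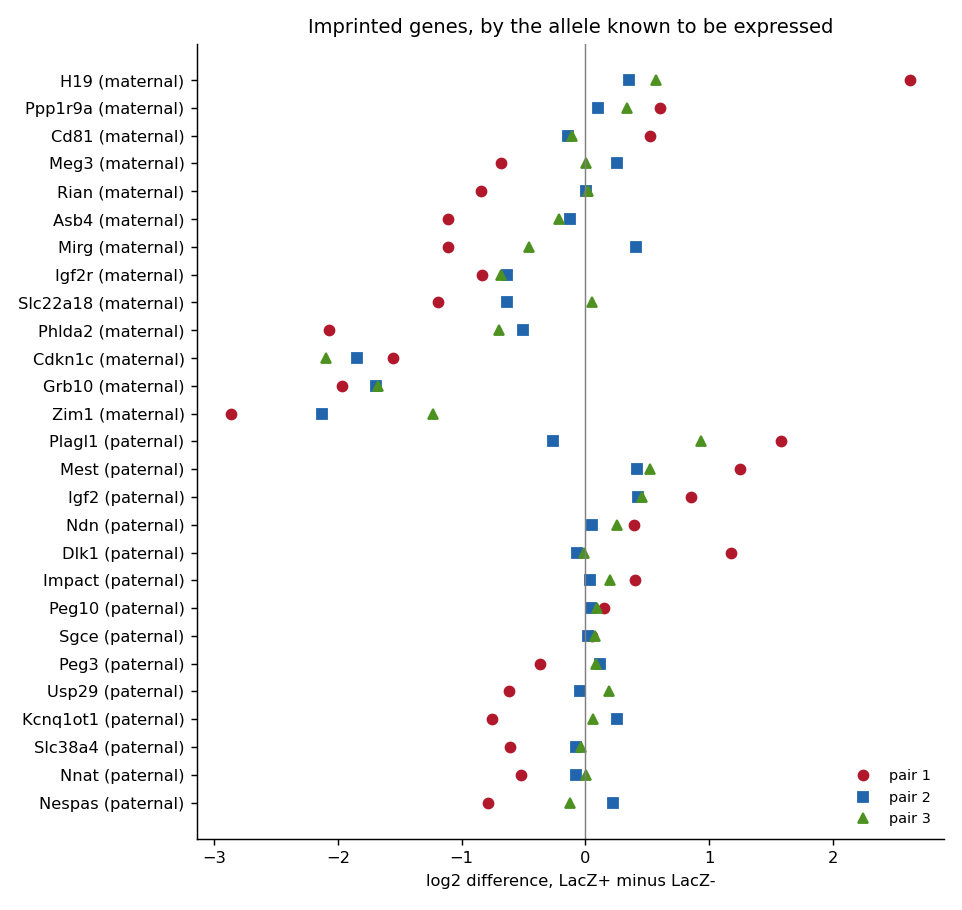
Log2 difference (LacZ+ minus LacZ-) in each of the 3 pairs for 27 imprinted genes, with the allele known to be expressed in brackets. Grb10, Cdkn1c, Igf2r, Zim1 and Phlda2 are negative in every pair, Mest and Igf2 are positive in every pair, and pair 1 is scattered for the rest.

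Some genes that passed in replicates 2 and 3 had the other sign in pair 1. Pard6b, a cell polarity gene, rose by 0.50 ± 0.09 log2 there (edgeR adjusted p = 0.0166) and differed by -0.69 in pair 1. Pdcd4, a translation inhibitor, fell by 0.64 on the log2 scale (SE 0.11, edgeR adjusted p = 0.00733) and differed by 0.16 in pair 1. Fbn2, an extracellular fibrillin, and Slc2a3, the glucose transporter GLUT3, rose by 0.39 ± 0.07 and 0.38 ± 0.07 log2 (edgeR adjusted p = 0.0166 and 0.0165) and were higher in pair 1 too, by 0.71 and 1.16. Dlc1 was lower in 3 of 3 pairs at 269, 205 and 147 CPM in LacZ- and 198, 132 and 106 CPM in LacZ+ libraries, and fell with DESeq2 (adjusted p = 0.00389; edgeR adjusted p = 0.246). Cell cycle, hypoxia and glycolysis, and immediate early lists had medians of 0.08, 0.06 and 0.01 log2, and no member of these had an unadjusted p under 0.05. Lrp2, the endocytic receptor in the study's title, differed by 2.21 log2 in pair 1 and by -0.03 and 0.19 in pairs 2 and 3.

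Pair 1 also differed in some transcripts of pluripotent and epithelial cells. Utf1, a chromatin factor of pluripotent cells, had 2393 reads in LacZ+ replicate 1, 88 in LacZ- replicate 1 and 2 to 8 in the other 4 FLK1+ libraries. Dppa3 and Gdf3, also of pluripotent cells, had 190 and 162 reads in LacZ+ replicate 1, 10 and 3 in its partner, and at most 5 in the others. Of the epithelial genes, Cdh1 (E-cadherin) stood at 30.4, 10.7 and 14.2 CPM in LacZ- and at 169, 9.30 and 10.9 CPM in LacZ+ libraries, and Cldn6 had 947 reads in LacZ+ replicate 1 against 16 to 87 elsewhere. The keratin gene Krt18 went the other way, with differences of -0.40, 0.78 and 0.41 log2 in pairs 1 to 3. Pou5f1, the pluripotency factor OCT4, differed by 1.67 log2 in pair 1 and by -1.48 and -0.55 in pairs 2 and 3. The pluripotency list of 16 tested genes had pair medians of 0.99, -0.21 and -0.30 log2, and the 12 endoderm and epithelial genes 0.94, -0.14 and -0.10. The endothelial values of LacZ+ replicate 1 stood beside pluripotency and epithelial transcripts in the same library, and their part in the pair 1 values was not tested. In bulk samples more cells of a type and more RNA per cell cannot be told apart. In pairs 2 and 3 the pluripotency, endoderm and primitive streak medians were negative and the endothelial median was positive. These lists share members: Tdgf1 is on the pluripotency and streak lists, and Sox7 and Sox17 are on the endothelial and endoderm lists. Foxa2 and Cer1 are on the streak and endoderm lists.

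**Figure D5:**
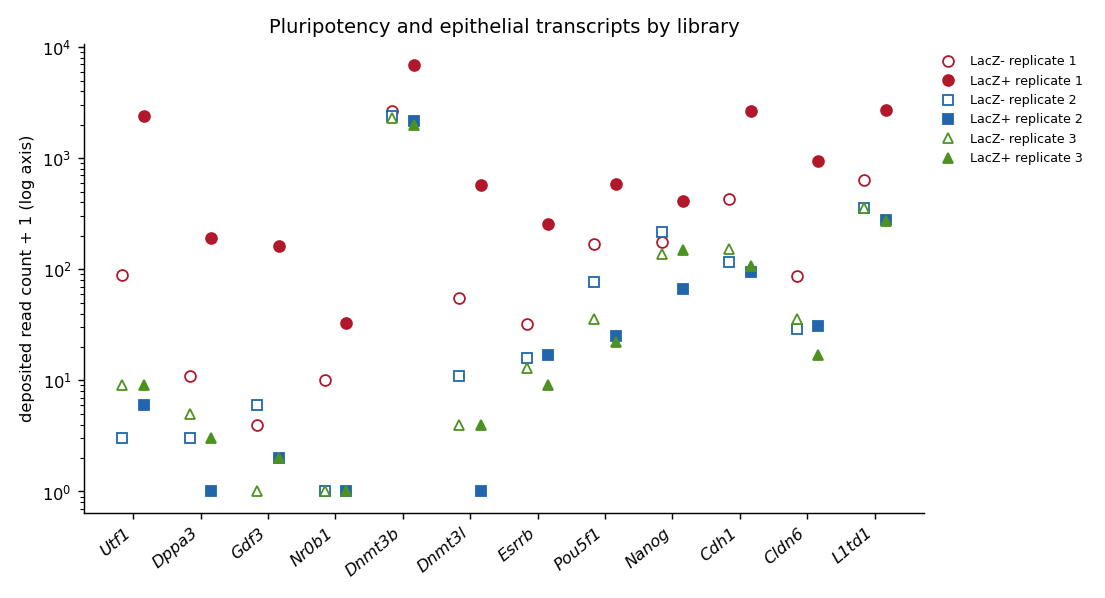
Deposited read count plus 1 (log axis) of 12 pluripotency and epithelial genes in the 6 FLK1+ libraries. The 12 were chosen by hand and are not a whole list. Open symbols are LacZ- and filled symbols LacZ+ libraries. LacZ+ replicate 1 is the highest library for all 12 genes, with 2393 reads of Utf1 against 88 in its partner. Tdgf1, on the pluripotency list but not shown, differed by -1.18 log2 in pair 1.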

How the data were processed

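Gene expression was measured by RNA-seq. Per the labels' protocols, RNA was extracted after sorting, amplified with a Nugen kit, and libraries followed the Illumina protocol. The authors deposited unnormalized read counts, 1 line per gene symbol. Per the submitters' processing notes, HTSeq 0.6.1, STAR 2.4.0 and the genome build mm10 were used; no source used here gives the annotation, strand setting or filters. The table had 24061 lines, of which 27 with a calendar date in place of a symbol were left out (at most 0.349% of a library's counts), and library totals were then 9673396 to 16337785.

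Genes were filtered with edgeR 4.0.16's filterByExpr (13662 kept), scaled with TMM, and fitted in R 4.3.3 with 1 robust quasi-likelihood model (glmQLFit, glmQLFTest) of all 15 libraries, with a mean for each of 5 groups and the replicate number as a block. Benjamini-Hochberg adjustment was over all genes tested, with a threshold of 0.05, and SE is the value that gives the test statistic. CPM is the TMM-scaled count that edgeR gives for libraries of equal size. Pair differences used a prior count of 2. Pairing by number is set by how the comparison is defined. Deviations from the group means of same-numbered LacZ- and LacZ+ libraries correlated at 0.797, 0.639 and 0.644. Across numbers, LacZ- replicate 2 with LacZ+ replicate 3 gave 0.634, and LacZ- replicate 3 with LacZ+ replicate 2 gave 0.543. Replicate 1 with either of the others gave -0.725 to -0.673. These values set replicate 1 apart but hardly separate the pairs of replicates 2 and 3. No 2 libraries agreed within sampling noise. DESeq2 1.42.0 and the other alternatives are in the closing section. On simulated counts of 13507 genes with 200 changed, the fit called 176 genes, 11 of them falsely, and recovered 94% of 4-fold and 71% of 2-fold changes. The counts were drawn from the fitted model itself. The changed genes were taken from the more abundant ones, and each change was equal in every pair. Recovery of genes with few reads, or with pairs as unequal as those seen here, was not tested.

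The comparison, the 24 gene lists, the motifs and the rule for named genes were chosen with earlier results of these data known. The rule took a fixed set; the 12 rises and 12 falls with the lowest p that had the same sign in 3 pairs and at least 10 CPM in the higher group; up to 5 members of each list with the lowest p and 2 with the highest level; and the 10 rises and 10 falls with the lowest p called in replicates 2 and 3. Genes named outside it, such as Eltd1, Tlr4, Utf1, Dppa3, Gdf3, H19, Igf2, Sgce, Cldn5, Emcn, Arhgef15, Flt4, the angiopoietins, Dll1, Nodal, Lefty2, Fgf5, Nog and the blood markers with few reads, were chosen after their values were seen. Positions are from RefSeq on GRCm38.p6, the assembly that mm10 names, matched by symbol or synonym.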

Additional observations from a re-analysis of the deposited data

How the results depend on the processing

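The number of genes called was 0 with the replicate block and 0 with no replicate block (170 genes at an unadjusted p under 0.05, edgeR), 0 with RLE factors and 0 with at least 5 CPM in 3 libraries. It was 1 with no filter, 1 with only the FLK1+ libraries, 32 with replicates 2 and 3 only and the replicate block, 50 with DESeq2 and 0 to 19 with 1 library left out, where the arm left with 2 samples shares the spread of the other groups. The 19 came without LacZ+ replicate 2 and were all higher, among them Cdh5, Pecam1 and Gimap4; without LacZ- replicate 2 there were 2 calls and without LacZ- replicate 3 there was 1. With only the FLK1+ libraries of replicates 2 and 3, chosen after seeing the data, 83 genes passed with the replicate block and 2 with no block (Cdh5 and Grb10). The 83, of 12542 tested, were 38 higher and 45 lower in LacZ+ cells. Among them were Mixl1, T, Pdgfra, Pecam1, Phlda2, Igf2 and H19. None of these 7 had passed in the edgeR fits of all libraries or of replicates 2 and 3 with the HEI libraries. The cause of the differences between settings was not tested. Eng differed by 0.62 log2 with no replicate block, by -0.048 in replicates 2 and 3, by -0.0613 and -0.0601 there with only the FLK1+ libraries, without and with the block, and by -0.10 (without LacZ- replicate 1) to 0.60 with 1 library left out. The endothelial median was positive in all 15 alternatives, from 0.55 log2 (replicates 2 and 3) to 1.34, and was 0.70 without LacZ+ replicate 1. The primitive streak median was negative in all 15: -0.73 with at least 5 CPM, -0.77 in replicates 2 and 3 (-0.79 and -0.78 with only the FLK1+ libraries, without and with the block), -0.69 with DESeq2, and -0.93 (without LacZ+ replicate 1) to -0.60 with 1 library left out. Of 2587 values of the 176 named genes under the alternatives, 88 newly passed the threshold and 130 changed sign without passing in either fit. Of the 44 named genes that passed under at least 1 alternative, 1 changed sign under another: Pard6b differed by -0.02 without LacZ+ replicate 2 and by -0.06 without LacZ+ replicate 3. The pluripotency median kept its sign in 9 of 15 alternatives and the endoderm median in 13. Depth limits genes with few reads, such as Cldn5 and Emcn.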
